A study of Mus musculus with 5 samples.

Results

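The cells described here are cycling T cells from mouse hearts, 230 of 47319 cell barcodes in 5 single-cell RNA libraries. A barcode was counted as a cycling T cell when at most 10% of its UMIs (unique molecular identifiers, 1 per captured RNA molecule) came from mitochondrial genes and when it met 4 limits. It held at least 2 UMIs of Cd3d, Cd3e and Cd3g together, which encode chains of the CD3 complex on every T cell. It held at least 2 UMIs of Mki67, Top2a, Birc5, Cdk1 and Ccnb2 together, which dividing cells switch on. It held at most 1 UMI of the B cell genes Cd79a and Ms4a1 and the macrophage genes C1qa, C1qb and C1qc together, and none of the endothelial gene Cdh5 or the fibroblast gene Pdgfra. The members were thus selected on the measured UMIs of these 15 genes and of mitochondrial genes. The libraries held 35 (control 1), 2 (control 2), 7 (disease 3), 144 (disease 4) and 42 (disease 5) such cells, beside 2800 other T cells that met the same limits with 0 or 1 cell-cycle UMI.

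A T cell that meets its antigen leaves rest, copies its DNA in S phase and divides in M phase, and its daughters can become effector or memory cells. The machinery runs in waves: E2F factors switch on genes for DNA copying, and a later wave switches on genes for the spindle, chromosome condensation and the separation of sister chromatids. In myocarditis under immune checkpoint blockade, T cells infiltrate heart muscle, and CTLA-4 and PD-1 are receptors that restrain T cell activation.

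The hearts came from 2 genotypes that both lack Pdcd1, the gene of PD-1, in the germline. Controls were Ctla4+/+ Pdcd1-/- (4 mice, 2 libraries), and mice with myocarditis were Ctla4+/- Pdcd1-/- (10 mice, 3 libraries), so that the groups differed in 1 copy of Ctla4. Hearts were digested with enzymes and pooled, nucleated live cells were sorted as DRAQ5+ and DAPI-, and 5′ libraries were sequenced. The mice's age and sex, and which mice entered which library, are not given in the sources used here. Each library is therefore a pool of hearts, and p-values measure the spread between such pools. The sample labels number the Pdcd allele from 1 to 3 and the dye from 5 to 9 across libraries, whereas the series' design text names Pdcd1 and DRAQ5 for all, and the design text was followed.

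Libraries held 6465 to 11358 barcodes and 24991704 to 55053988 UMIs, and 38337 barcodes passed the mitochondrial limit. Any pair of libraries had 86 to 161 barcode sequences in common, but no cycling T cell shared its barcode with a cycling T cell of another library. A doublet caller marked 4 of 230 cycling T cells (1.74%) and 42 of 2800 other T cells (1.5%). The cycling T cells summed to 415036, 15415, 66786, 1227378 and 457349 UMIs in control 1, control 2, disease 3, disease 4 and disease 5, so that 3 counts were worth 7.23, 195, 44.9, 2.44 and 6.56 CPM (UMIs per 1000000 UMIs of the summed cells). Values of control 2 rest on 2 cells and those of disease 3 on 7 cells.

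Cd3e, Top2a and Mki67 had a UMI in most cycling T cells, which the rule favours, while Birc5, Cdk1 and Ccnb2 were absent from most. Cd3e had a UMI in 226 of 230 cycling T cells (98.3%), and Top2a, the topoisomerase that untangles copied DNA, in 201 (87.4%). Mki67, a protein coating mitotic chromosomes, was seen in 144 cells (62.6%), the mitotic kinase Cdk1 in 107 (46.5%), Birc5 (survivin) in 96 (41.7%) and the cyclin gene Ccnb2 in 51 (22.2%). In the summed cycling T cells Mki67 lay at 258, 714, 239.6, 315 and 259.5 CPM in control 1, control 2, disease 3, disease 4 and disease 5, and Cd3e at 1443, 714, 1407, 2048 and 1778 CPM. Cd3e in the other T cells of the same libraries lay at 1590.4, 792, 1194, 2321 and 2009.7 CPM. The cells were chosen by these genes, so their levels are a description and were not tested.

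The cells differed widely in how much cell-cycle RNA they held. The sum of the 5 cell-cycle genes had a median of 4 UMIs and reached 90 in 1 cell. It stood at exactly 2 UMIs, the lowest value admitted, in 90 cells (39.1% of the 230), at 3 to 7 in 45 cells and at 8 or more in 95 cells. Just outside the limit lay 392 T cells with 1 such UMI, and 2408 T cells had none. Among the 90 cells at the limit, 72 had a Top2a UMI, and in 42 both UMIs came from Top2a. Of these 90 cells 14 came from control 1, 62 from disease 4 and 14 from disease 5.

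Other cell-cycle genes, which the rule did not use, followed the same gradation when cells were pooled by their number of cell-cycle UMIs. A list of 39 DNA replication genes gave 12.6 UMIs per 10000 in T cells with 0 cell-cycle UMIs, 14.2 with 1, 18.8 with 2, 31.4 with 3 to 7 and 58.9 with 8 or more. A list of 51 mitosis genes gave 7.33, 7.49, 9.01, 17.9 and 50.6 per 10000 over the same classes. In these pooled values cells at the limit were thus close to the T cells just outside it in mitosis RNA and somewhat above them in replication RNA, while cells with 8 or more stood well apart. In control 1 replication RNA was level, at 16.9 per 10000 with 2 UMIs against 16.7 with 1. It was 20.2 against 13.7 in disease 4 and 16.5 against 13.9 in disease 5. Mitosis RNA was 10.5 against 8.56, 8.68 against 7.28 and 8.49 against 7.13 in the same order. The median total of UMIs per cell ran in the same order, at 3768, 4683.5, 5364, 7822 and 11986. Deeper cells reach a limit of 2 UMIs more easily, and the part of depth in the gradation was not tested.

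**Figure D1:**
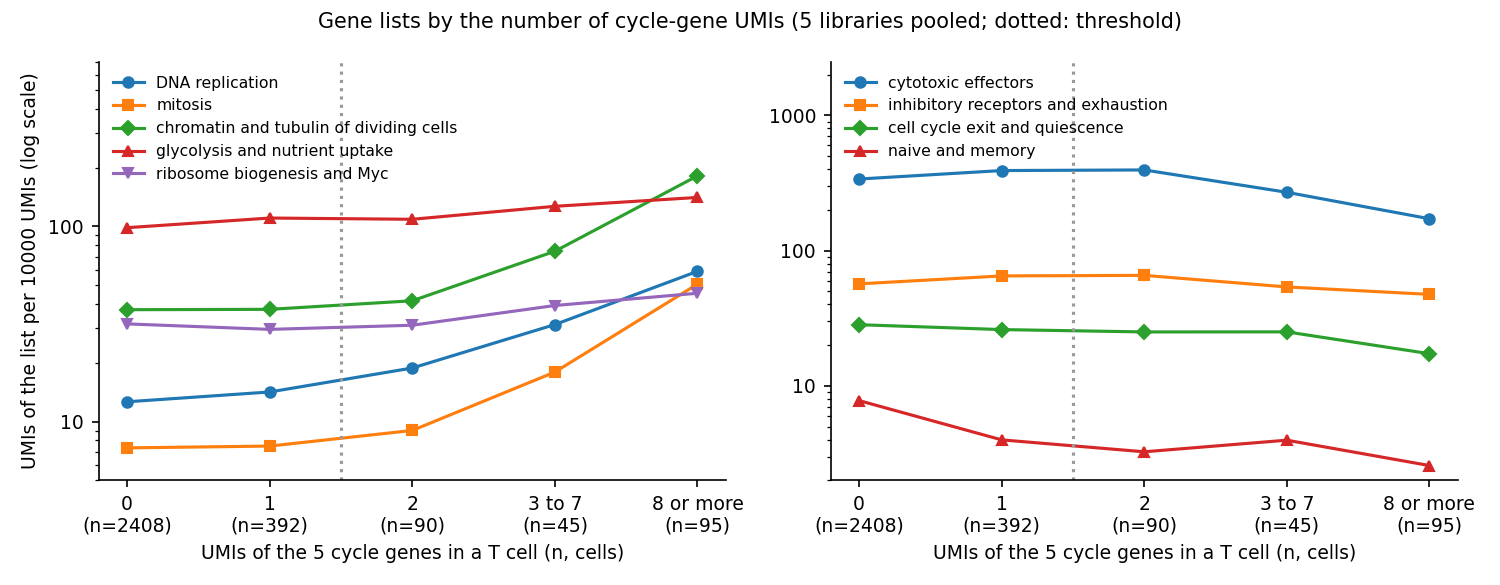
Both panels plot the UMIs of a gene list per 10000 UMIs (log scale) against the number of UMIs of the 5 cell-cycle genes in a T cell, pooled over the 5 libraries; the dotted line marks the limit between other and cycling T cells. DNA replication, mitosis and chromatin lists climb most between 2 and 8 or more UMIs, and the cytotoxic list falls from 395 per 10000 at 2 UMIs to 172 at 8 or more.

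Cycling T cells made up 7.92% of T cells in control 1 (95% Wilson interval 5.75 to 10.8), 2.25% in control 2 (0.618 to 7.83), 5.69% in disease 3 (2.78 to 11.3), 7.72% in disease 4 (6.59 to 9.02) and 8.22% in disease 5 (6.14 to 10.9). The 2 control libraries held the second highest and the lowest share, and the disease libraries overlapped them. Group means were 5.08% ± 4.01 (SD, n = 2) in controls and 7.21% ± 1.34 (SD, n = 3) in disease. The difference of 2.13 percentage points was within the spread between libraries (exact permutation test over 10 splits, two-sided p = 0.6, 0.8 after Benjamini-Hochberg adjustment over 3 such tests). With 2 against 3 libraries the smallest p this test can give is 0.1. Without control 2 the difference turned to -0.71 points, without control 1 it was 4.96, and with a mitochondrial limit of 5% it was 4.86. Intervals cover counting error only.

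Thinning every T cell to 1000 UMIs lowered the shares to 2.71, 1.16, 1.99, 2.45 and 2.30% in control 1, control 2, disease 3, disease 4 and disease 5, with the 72 T cells of fewer UMIs left out. The thinned groups differed by 0.311 points (exact permutation p = 0.8, adjusted 0.8), by -0.46 points without control 2 and by 1.08 points without control 1. Thinning to 2000 UMIs gave 1.23 points, and a mitochondrial limit of 5% gave 1.37. As a share of all cells passing the mitochondrial limit, cycling T cells came to 0.377, 0.0358, 0.120, 1.45 and 0.546%, highest in disease 4, where T cells were 18.7% of cells against 1.59 to 6.64% in the other libraries. The groups overlapped on this measure too, with a difference of 0.497 points (exact permutation p = 0.4, adjusted 0.8). That difference was 0.127 points without disease 4, 0.789 without disease 3 and 0.326 without control 2.

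**Figure D2:**
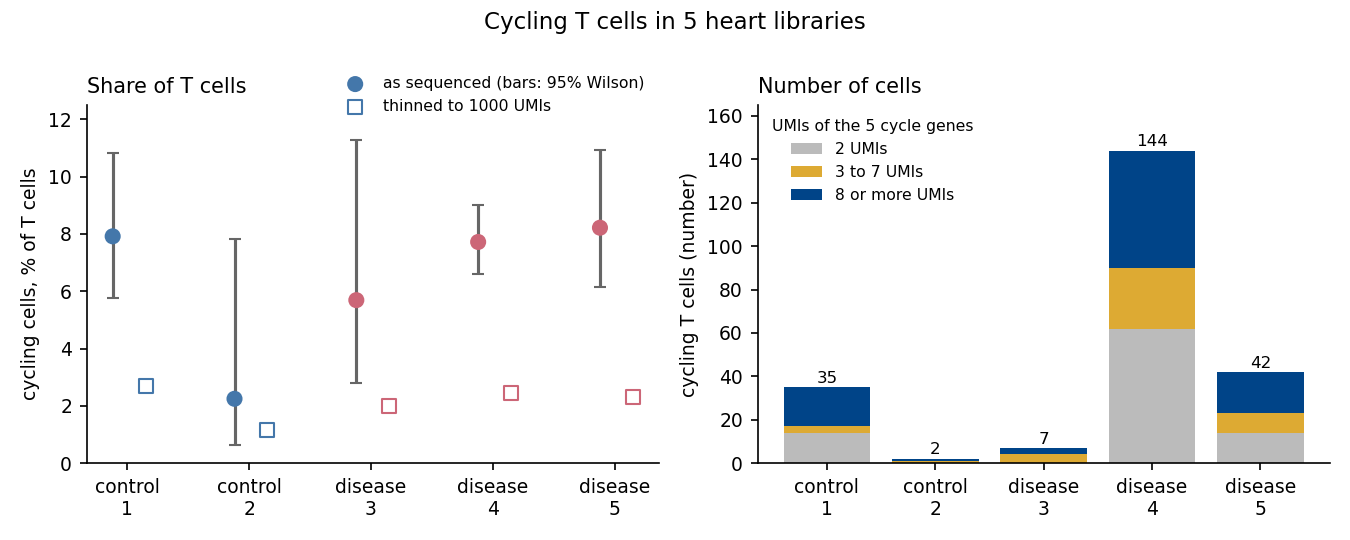
The left panel plots cycling cells as a percentage of T cells for each library, as sequenced with 95% Wilson intervals (circles) and after thinning to 1000 UMIs (squares); the right panel stacks the number of cycling T cells by their UMIs of the 5 cell-cycle genes. Control 2 lies lowest at 2.25% with 2 cells, and disease 4 supplies 144 of the 230 cells.

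T cells had the highest share of barcodes with at least 2 cell-cycle UMIs among the lineages compared. That share was 7.59% of T cells (95% Wilson interval 6.70 to 8.59), against 2.81% of cells marked by C1q genes (macrophages), 0.822% of Pdgfra cells (fibroblasts), 0.773% of Cd79a or Ms4a1 cells (B cells) and 0.444% of Cdh5 cells (endothelium). At 1000 UMIs per cell the values were 2.40, 0.523, 0.0840, 0.118 and 0.108%. Median depth was 4005.5 UMIs in T cells, 6171 in C1q cells, 6181 in Pdgfra cells, 2597 in Cd79a or Ms4a1 cells and 3200 in Cdh5 cells. These are pooled shares, given without a test. Of the 668 barcodes with at least 2 cell-cycle UMIs in the whole series, 230 (34.4%) were cycling T cells, and per library that share was 25.2, 5.88, 21.2, 40.7 and 38.9%.

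Gene levels in the summed cycling T cells of each library were then set against the summed other T cells of the same library, with the library as a block (edgeR quasi-likelihood test, Benjamini-Hochberg adjusted p under 0.05 over all genes tested). Of 4349 genes tested, 296 were higher (6.81%) and 474 lower (10.9%) in cycling T cells, and the median log2 fold change of all of them was -0.16. Scaling by DESeq2 size factors instead gave 476 higher and 345 lower and moved that median to -0.038, a shift of 0.12; fold changes are best read against the median of all genes. The cells were split by cell-cycle genes, so the rise of further cell-cycle genes is part of the split: their counts are printed beside the background and nothing is read from them. A gene entered the test only with enough UMIs in the sums, those of control 2 included, so rare cell-cycle genes got in mainly through the cycling cells and many were not tested.

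DNA replication genes stood higher throughout, which the split by cell-cycle genes favours. The values of this list and of the mitosis and chromatin lists are therefore given as a description. In the 3 libraries with at least 20 cycling T cells, all 39 listed genes were higher in the cycling cells of each library, against 2515 of 16903 genes with UMIs overall (14.9%). That background takes in sparse genes and is not matched for level. Of the 16903 genes 10943 were mixed, and a gene without UMIs in a library counts as mixed. The fit tested 23 of the 39, called 20 higher (against 6.81% of all genes tested) and none lower, and gave a median log2 fold change of 2.01; Slbp, Rpa2 and Nasp were not called. Summed over the list, cycling T cells held 4669, 2854, 4761, 4212 and 4723 CPM in control 1, control 2, disease 3, disease 4 and disease 5, and other T cells 1420.5, 1183, 1244, 1239 and 1358 CPM. The 2 sets of values did not overlap, and the ratio ran from 2.41 in control 2 to 3.83 in disease 3.

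Clspn encodes claspin, an adaptor of the DNA replication checkpoint. It lay at 89.1, 129.7, 29.9, 134 and 129 CPM in the cycling T cells and at 5.30, 0, 0, 3.84 and 2.30 CPM in the others, in the same library order, a log2 fold change of 4.90 ± 0.26 (SE). Uhrf1, which brings the maintenance DNA methyltransferase to newly copied DNA, lay at 86.7, 64.9, 74.9, 115 and 105 CPM against 8.19, 0, 2.16, 10.1 and 8.26 CPM (3.43 ± 0.23). For both genes every cycling value of control 1, disease 4 and disease 5 was above every library's other value; those of control 2 rest on 2 UMIs for Clspn and 1 for Uhrf1, and that of Clspn in disease 3 on fewer than 3 as well. Cdc6, which loads the replicative helicase onto origins, had a fold change of 5.59 ± 0.31. Tyms, which makes thymidylate, stood at 3.01 ± 0.20, and Mcm5, a subunit of that helicase, at 2.81 ± 0.21. Pcna, the sliding clamp of DNA polymerases, differed least of the genes called (0.66 ± 0.21), and lay at 135 to 233 CPM in the other T cells.

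Mitosis genes had larger ratios. Of 51 listed, 50 were higher in the cycling cells of each of the 3 fuller libraries and the other one was mixed. The share of all genes higher in each of these libraries was 14.9%. Only 16 entered the fit, of which 15 were called higher (against 6.81% of all genes tested) and none lower, with a median of 2.02; Cenpa, the centromeric histone, was not called. The summed list lay at 4559, 2530.0, 4627, 3142 and 3155 CPM in cycling and at 814, 811, 635, 726 and 703 CPM in other T cells. Every cycling value was above every other value, with ratios from 3.12 in control 2 to 7.29 in disease 3.

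Ube2c is the ubiquitin-conjugating enzyme of the anaphase-promoting complex. It lay at 352, 129.7, 374, 22 and 65.6 CPM in the cycling T cells and at 2.89, 0, 2.16, 0.285 and 2.76 CPM in the others (log2 fold change 5.99 ± 0.31). Its cycling level thus differed among libraries, and was lowest in disease 4, which had the most cells. Cdca8, borealin of the chromosomal passenger complex, was more even at 166, 64.9, 135, 88.8 and 105 CPM against 3.85, 5.43, 0, 1.57 and 5.97 CPM (5.00 ± 0.27). Tpx2, a spindle assembly factor, stood at 4.51 ± 0.28, Cks1b, a small subunit of cyclin-dependent kinases, at 4.26 ± 0.23, the spindle motor Kif11 at 3.48 ± 0.26 and the condensin subunit Smc2 at 3.03 ± 0.20. Kif2c and Pbk had no UMI in any of the 2800 other T cells.

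The promoters of these 4 genes are printed because replication and mitosis genes carry different promoter elements in textbook accounts: E2F sites in the first wave, and the CHR element (TTTGAA) with CCAAT boxes in the second. Each window runs from 250 bases before to 50 after the RefSeq start in GRCm38.p6, 5′ to 3′ on the gene's strand. Capitals mark matches to TTTGAA or CCAAT on either strand, so that TTCAAA and ATTGG are matches on the opposite strand; in Cdca8 one match of each shares bases.
Clspn (chr4:126556730-126557029, plus strand): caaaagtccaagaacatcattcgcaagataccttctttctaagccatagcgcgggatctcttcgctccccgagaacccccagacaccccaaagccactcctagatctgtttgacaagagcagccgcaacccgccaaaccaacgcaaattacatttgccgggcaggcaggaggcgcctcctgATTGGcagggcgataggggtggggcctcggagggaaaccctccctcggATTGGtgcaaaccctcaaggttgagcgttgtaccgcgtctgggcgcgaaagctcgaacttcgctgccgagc
Uhrf1 (chr17:56303087-56303386, plus strand): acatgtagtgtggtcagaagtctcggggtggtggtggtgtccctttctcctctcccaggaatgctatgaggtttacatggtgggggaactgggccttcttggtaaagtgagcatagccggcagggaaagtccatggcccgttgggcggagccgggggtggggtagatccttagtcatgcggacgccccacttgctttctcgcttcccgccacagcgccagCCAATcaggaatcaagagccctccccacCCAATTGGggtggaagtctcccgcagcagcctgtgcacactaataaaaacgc
Ube2c (chr2:164769679-164769978, plus strand): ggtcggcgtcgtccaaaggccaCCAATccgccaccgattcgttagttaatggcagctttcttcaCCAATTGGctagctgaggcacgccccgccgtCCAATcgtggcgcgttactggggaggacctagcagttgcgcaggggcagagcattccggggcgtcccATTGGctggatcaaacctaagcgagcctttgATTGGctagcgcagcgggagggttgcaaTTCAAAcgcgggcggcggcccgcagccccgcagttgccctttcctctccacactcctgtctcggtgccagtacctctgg
Cdca8 (chr4:124936868-124937167, minus strand): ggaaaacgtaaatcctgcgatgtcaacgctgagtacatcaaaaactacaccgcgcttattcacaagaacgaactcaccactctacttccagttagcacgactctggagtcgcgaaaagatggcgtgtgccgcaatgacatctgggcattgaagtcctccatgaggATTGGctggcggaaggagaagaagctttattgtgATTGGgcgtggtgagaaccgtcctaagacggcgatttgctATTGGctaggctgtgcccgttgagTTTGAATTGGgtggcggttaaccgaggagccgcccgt
The Ube2c window held 1 CHR and 6 CCAAT matches and that of Cdca8 1 and 4, whereas Clspn held 2 CCAAT matches and no CHR, and Uhrf1 3 and no CHR. For E2F only the spellings TTTCCCGC and TTTGGCGC were searched, on both strands, and none of the 4 held either. Other forms of the site were not searched, so these windows may still hold one. Over the lists, 40 mitosis genes had a promoter in the table, and 30 of them (75.0%) held TTTGAA, against 4 of 31 DNA replication genes (12.9%) and 18.1% of 27025 promoters. The E2F spellings searched were in 25.8% of the replication promoters, 2.50% of the mitosis promoters and 1.63% of all, and other forms are not counted in these shares. CCAAT was in 61.3%, 77.5% and 37.9%. A match is a run of letters in this window, and its use by a factor was not measured.

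Chromatin and tubulin genes of dividing cells made up the most abundant of the 3 cell-cycle lists, at 13847, 6098, 19689.8, 11896 and 13532 CPM in cycling T cells against 3530 to 4192 CPM in the others. Of 18 genes, 16 were tested and 14 called higher (against 6.81% of all genes tested), none lower, with a median of 2.00; Tubb4b and H2afz were not called. The linker histone gene Hist1h1b lay at 178, 195, 239.6, 281 and 182 CPM in cycling T cells and at 0.482, 2.71, 0, 7.98 and 4.13 CPM in the others (5.44 ± 0.26), with no overlap. Hist1h2ap had the largest fold change of the genes named for cycling against other T cells (6.46 ± 0.31) and Hist1h2ae one of 5.19 ± 0.28. Core histone genes have near-identical copies, and how the authors' counting split reads among them is not given in the sources used here, so single copies are uncertain. Stmn1, which destabilises microtubules, lay at 455, 259.5, 1078, 822 and 995 CPM against 45.3, 78.7, 71.3, 71.3 and 95.05 CPM (3.09 ± 0.24), and the beta-tubulin gene Tubb5 had a fold change of 2.21 ± 0.28.

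As a share of UMIs, some genes that mark rest were lower in the cycling T cells. The median cell held 7850.5 UMIs in the cycling class and 3888 in the other. Here and below, a lower share need not mean fewer UMIs per cell. The part of depth and of RNA from other cell types in these falls was not tested. Of 16 genes of cell cycle exit and quiescence, 15 were tested, 9 were called lower (against 10.9% of all genes tested) and none higher, and the median was -0.70 against -0.16 for all genes tested. Klf2, a factor that keeps T cells quiescent and drives their recirculation, lay at 14.5, 129.7, 44.9, 3.26 and 19.7 CPM in cycling T cells and at 40.9, 217, 149, 17.9 and 54.6 CPM in the others of control 1, control 2, disease 3, disease 4 and disease 5. It was lower in the cycling cells of 5 of 5 libraries, in control 2 also when its 2 UMIs are read as 3 (195 CPM), although the ranges over libraries overlapped (log2 fold change -1.95 ± 0.30, edgeR adjusted p = 9.0e-08). The antiproliferative genes Btg1 (-1.07 ± 0.25) and Btg2 (-1.04 ± 0.22), Txnip, a brake on glucose uptake (-0.95 ± 0.22), and Cdkn1b, the kinase inhibitor p27 (-0.61 ± 0.20), were also called lower by edgeR with adjusted p of 0.00092, 0.00021, 0.00043 and 0.020. Cdkn1a, the inhibitor p21, was not called, at -0.31 ± 0.21. In the 3 fuller libraries 11 of the 16 were lower in the cycling cells of each (68.8%, against 20.4% of all genes) and 2 were higher in each. The 20.4% takes in sparse genes and is not matched for level. The ratio of the summed list was 0.691, 0.592, 0.780 and 0.688 in control 1, disease 3, disease 4 and disease 5, and 1.07 in control 2. Under DESeq2 size factors 7 were called lower, without Ccng2 and Pdcd4; without the library block none of the 15 was called, with a median of -0.93, and with other T cells drawn down to the number of cycling cells 2 of 9 were, with a median of -0.31.

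Genes of naive and memory T cells had the lowest median of the 13 lists. Of 13 listed, 10 were tested and 9 called lower, against 10.9% of all genes tested (among them Il7r, Lef1, Tcf7, Satb1, Ccr7, S1pr1, Id3 and Bcl2), none higher, with a median of -1.69. Slamf6 was not called. Il7r, the receptor for the survival cytokine IL-7, lay at 19.3, 0, 44.9, 33.4 and 13.1 CPM in cycling T cells of control 1, control 2, disease 3, disease 4 and disease 5 and at 76.1, 486, 404, 107 and 113 CPM in the others. In the 4 libraries other than control 2 every cycling value was below every other value, while the 0 of control 2 stands for fewer than 195 CPM and cannot be placed (log2 fold change -2.49 ± 0.26, edgeR adjusted p = 5.2e-15). Lef1, a factor of naive and memory cells, lay at 7.23, 195, 29.9, 10.6 and 10.9 CPM against 33.2, 312, 160.0, 50.4 and 43.2 CPM, lower within each of the 5 libraries (-2.32 ± 0.30, edgeR adjusted p = 1.2e-10). Its partner Tcf7 was lower in 4 of 5 libraries and about level in control 2 (195 against 185 CPM; -2.16 ± 0.32, edgeR adjusted p = 2.7e-08). Ccr7, the chemokine receptor that guides T cells into lymph nodes, had a fold change of -1.52 ± 0.24. As summed CPM the list stood at 253, 1557, 419, 341 and 166 in cycling and at 557, 2608, 1637, 624 and 627 in other T cells, a ratio of 0.256 to 0.597. Without the block 1 of 10 genes was called lower, and the median was -2.58. With equal numbers of cells 2 of the genes were tested and 1 was called lower, with a median of -1.19.

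**Figure D3:**
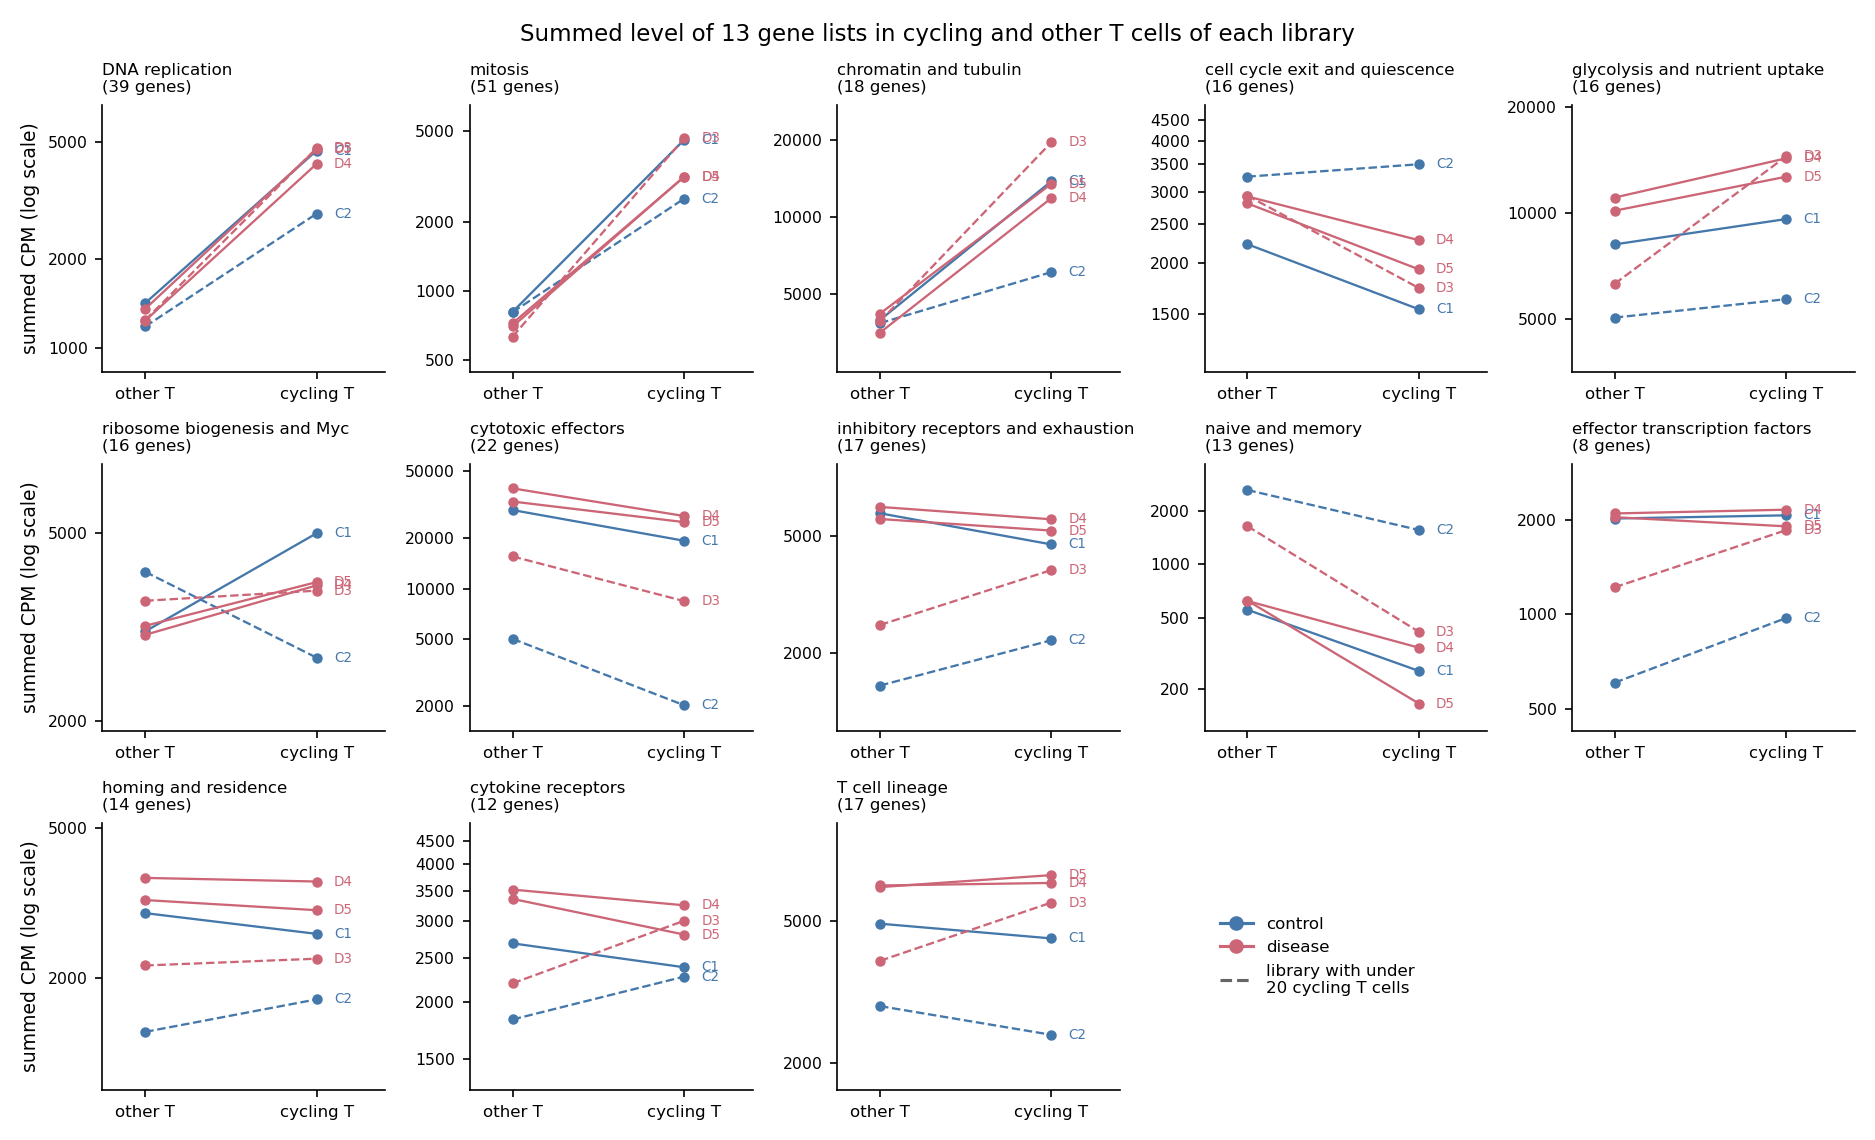
Each panel plots the summed CPM (log scale) of 1 gene list in other and in cycling T cells, joined by a line per library; dashed lines mark the libraries with under 20 cycling T cells, control 2 and disease 3. DNA replication, mitosis and chromatin lists rise along all 5 lines, the naive and memory and the cytotoxic lists fall along all 5, and the ribosome and inhibitory receptor lists go both ways.

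Cytotoxic effector genes remained abundant in cycling T cells, and their summed level was lower than in the others mainly through 1 gene, Ccl5. The summed list of 22 genes lay at 19285, 2011, 8415, 27096 and 24918 CPM in cycling and at 29406, 5005, 15541, 39608 and 33052 CPM in other T cells, lower in each library with ratios from 0.402 to 0.754. Of 20 genes tested 6 were called lower (against 10.9% of all genes tested) and none higher, with a median of -0.38. Without the library block none of the 20 was called, and with equal numbers of cells 1 was higher and 1 lower. By cell-cycle content the list was uneven: cells at the limit held 451 and 405 cytotoxic UMIs per 10000 in disease 4 and disease 5, above the 391 and 321 of T cells with no cell-cycle UMI, and 209.5 in control 1, below 289. Cells with 8 or more cell-cycle UMIs held 170, 170 and 189 per 10000 in control 1, disease 4 and disease 5. Each was below the T cells of its library with no cell-cycle UMI. A list of 7 natural killer cell markers, which shares no gene with the cytotoxic list, was lower too, at 96.4, 0, 0, 107 and 52.5 CPM in cycling and at 315, 508, 365, 147 and 181 CPM in other T cells, and its part in the cytotoxic values was not tested. The chemokine gene Ccl5 supplied most of the list in the other T cells of each library. In cycling T cells it did so in control 1, disease 4 and disease 5, but not in control 2 and disease 3. Ccl5 lay at 11305, 584, 3384, 15209 and 15323 CPM in cycling against 20700.2, 3229.7, 10644, 27573 and 22727 CPM in other T cells. It was lower in 5 of 5 libraries (-1.56 ± 0.35, edgeR adjusted p = 0.00045). Without Ccl5 the other 21 genes summed to 7980, 1427, 5031, 11887 and 9594 CPM in cycling and to 8706, 1775, 4897, 12035 and 10325 CPM in other T cells, ratios of 0.917, 0.804, 1.03, 0.988 and 0.929. The call on Ccl5 was lost without the block (-1.07), with equal numbers of cells (-0.59), with only cells of 8 or more cell-cycle UMIs (-2.02) and with only cells of 2 (-0.30). The other genes called were the chemokine Ccl4 (-1.06 ± 0.27), Serpinb9, an inhibitor of granzyme B (-0.98 ± 0.21), the lectin receptors Klrk1 (-0.73 ± 0.23) and Klrc1 (-0.70 ± 0.21), and the protease gene Ctsw (-0.65 ± 0.23). Under DESeq2 size factors Ctsw missed the threshold (edgeR adjusted p = 0.055) and the granzyme gene Gzmk was called higher (0.47, edgeR adjusted p = 0.044).

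The killing genes themselves were not called. Gzmb lay at 441, 0, 89.8, 648 and 654 CPM in cycling and at 395, 78.7, 229, 699 and 509.7 CPM in other T cells (-0.28 ± 0.25, edgeR adjusted p = 0.44), and Prf1, the pore-forming perforin, at 139.7, 0, 0, 395 and 225 against 119.4, 8.14, 45.3, 454 and 283 CPM (-0.34 ± 0.22, edgeR adjusted p = 0.30). Gzma, another granzyme, was higher in the cycling cells of control 1 (1024 against 476 CPM), disease 4 (974 against 397) and disease 5 (339 against 279.6) and had no UMI in those of control 2 and disease 3; its fold change of 0.34 ± 0.28 was not called. Ifng gave -0.42 ± 0.22 and was not called either. Values at 0 in control 2 stand for fewer than 195 CPM, the worth of 3 counts there.

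Of 17 inhibitory receptor and exhaustion genes, 14 were tested, Nr4a3 alone was called (lower, -0.75 ± 0.21, edgeR adjusted p = 0.0074; 10.9% of all genes were called lower), and the median of -0.17 was close to that of all genes. Without the block none was called. Lag3 lay at 402, 64.9, 209.6, 660 and 819.9 CPM in cycling and at 532, 16.3, 117, 817 and 776 CPM in other T cells (-0.25 ± 0.25), lower in control 1 and disease 4 and higher in disease 3 and disease 5, with 1 UMI in control 2. Tox, a factor of exhausted T cells, had a fold change of -0.13 ± 0.22, and Tigit one of -0.39 ± 0.26, neither called. The ratio of summed levels was 0.784, 0.908 and 0.913 in control 1, disease 4 and disease 5 and above 1 (1.43 and 1.54) in control 2 and disease 3.

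Growth genes stood somewhat higher in the summed cycling T cells, with few of them called. The summed glycolysis and nutrient uptake list was higher in 5 of 5 libraries, with ratios of 1.18, 1.13, 2.30, 1.29 and 1.25 in control 1, control 2, disease 3, disease 4 and disease 5. In each of the 3 fuller libraries 8 of 16 glycolysis genes and 13 of 16 ribosome biogenesis genes were higher in the cycling cells, against 14.9% of all genes, sparse ones included. The share of all genes tested that were called higher was 6.81%. Under DESeq2 size factors the glycolytic enzymes Pgk1 and Pkm and the nucleolar methyltransferase Fbl were called higher as well (0.71, 0.56 and 0.47), and without the library block no gene of either list was, with a ribosome median of -0.0055 against 0.29. Of 17 glycolysis and nutrient uptake genes 14 were tested: the glycolytic enzymes Tpi1 (1.14 ± 0.21, edgeR adjusted p = 1.4e-05) and Pgam1 (0.58 ± 0.20, edgeR adjusted p = 0.033) were called higher, the glucose transporter Slc2a3 lower (-0.81 ± 0.25, edgeR adjusted p = 0.015), and the median was 0.10. Of 16 ribosome biogenesis genes 11 were tested, and Nhp2 (0.95 ± 0.19), Pa2g4 (0.85 ± 0.21) and Dkc1 (0.60 ± 0.22) were called higher by edgeR. Nhp2 and Dkc1 are core proteins of the particles that pseudouridylate ribosomal RNA. The summed ribosome list was higher in cycling T cells of 4 libraries, with ratios of 1.05 to 1.61, and lower in control 2 (0.659). Myc had UMIs in the cycling cells of 3 libraries, at 96.4 (control 1), 9.78 (disease 4) and 32.8 CPM (disease 5), and was not tested.

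In the remaining T cell lists 1 gene each was called lower, near the 10.9% of all genes tested, and nothing is read from these counts. Among effector transcription factors 1 of 7 tested was lower, Rora (-0.59 ± 0.20). Among homing and residence genes 1 of 12 was lower, the collagen-binding integrin Itga1 (-1.18 ± 0.28), while Cxcr3, Cxcr6 and Itga4 were not called. Among cytokine receptors it was Il18rap (1 of 7, -0.80 ± 0.27), and among lineage genes Cd4 (1 of 13, -0.70 ± 0.23). Rora and Cd4 missed the threshold under DESeq2 size factors (edgeR adjusted p = 0.060 and 0.055). Il2ra, the activation-induced alpha chain of the IL-2 receptor, was not tested: it lay at 24.1, 0, 15.0, 44.8 and 28.4 CPM in cycling and at 8.67, 16.3, 32.4, 10.54 and 18.8 CPM in other T cells, higher in control 1, disease 4 and disease 5.

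**Figure D4:**
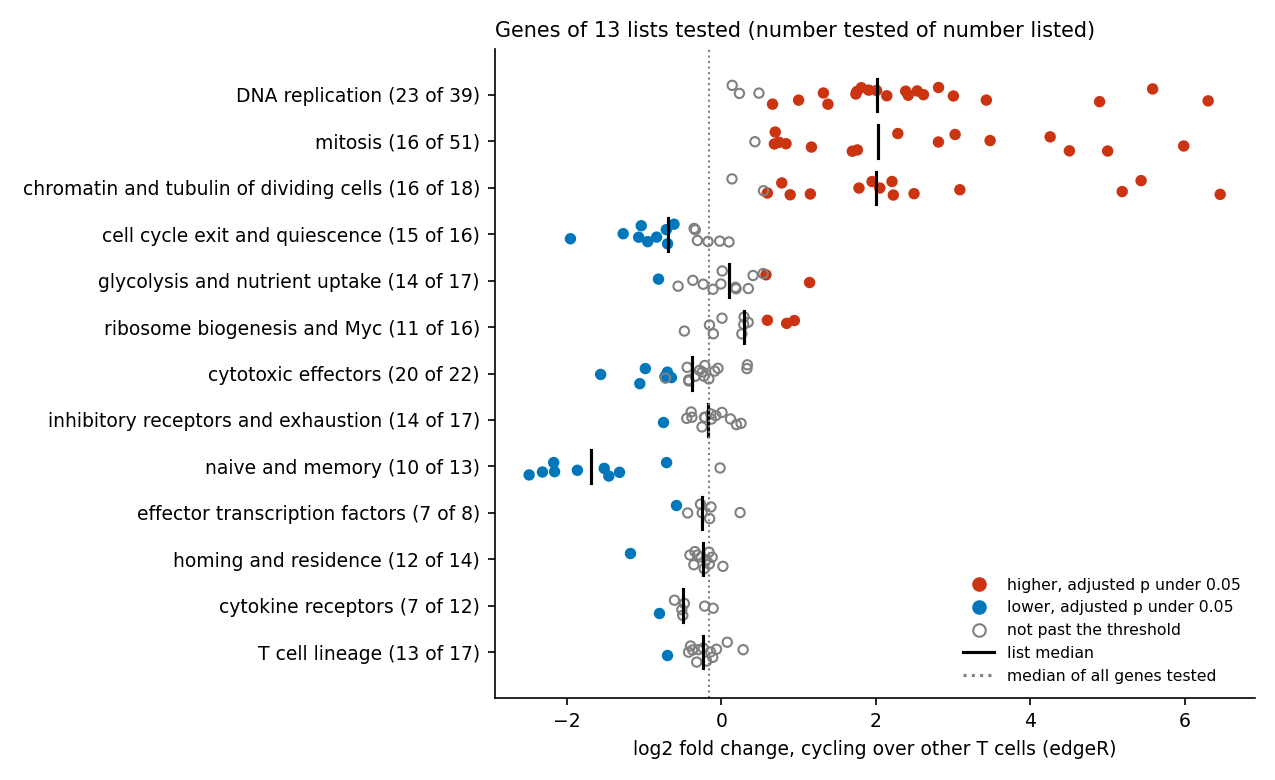
Each point is 1 gene of 13 lists, placed by its log2 fold change between cycling and other T cells; filled points passed an adjusted p of 0.05 in edgeR, bars are list medians and the dotted line is the median of all genes tested (-0.16). Replication, mitosis and chromatin genes lie to the right with medians near 2, naive and memory genes to the left (-1.69), and most genes of the other lists lie near the dotted line.

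Several genes of stromal and innate cells were among the largest falls. Sparc, a matrix protein gene of fibroblasts and endothelium, lay at 28.9, 0, 15.0, 25.3 and 41.5 CPM in cycling T cells of control 1, control 2, disease 3, disease 4 and disease 5 and at 221, 27.1, 112, 116 and 124 CPM in the others, lower in each library (-2.39 ± 0.24, edgeR adjusted p = 1.6e-15). Serping1, the C1 inhibitor (-2.26 ± 0.26), Ly6c1 (-2.22 ± 0.27), Gsn, gelsolin (-2.01 ± 0.26), and Fcer1g, a signalling chain of natural killer and myeloid cells (-1.97 ± 0.25), were also lower in each library. Tcp11l2 lay at 16.9, 195, 15.0, 53.0 and 28.4 CPM against 143, 350.1, 205, 159.5 and 146 CPM (-2.29 ± 0.24), and Tmem176a had a fold change of -1.93 ± 0.35, with no UMI in the cycling cells of control 2, disease 3 and disease 5. A 0 in control 2 stands for fewer than 195 CPM, so the direction there is not firm for Sparc and Tmem176a. RNA of other cell types was also read from marker lists. The fibroblast list holds Gsn and the natural killer list holds Fcer1g, so both partly repeat these falls. Pooled over libraries, a fibroblast marker list gave 3.49 UMIs per 10000 in cycling and 10.3 in other T cells, an endothelial list 0.995 and 3.30, a mural list 0.0962 and 0.518, and a natural killer list 0.894 and 2.01. In control 2 the ratio of cycling to other T cells was 0.941 for the fibroblast and 1.41 for the endothelial list. Macrophage markers (2.58 and 2.76) and B cell markers (0.577 and 0.414) were closer in these pooled values. The macrophage ratio was 0.646, 0, 0.433, 1.14 and 0.493 in control 1, control 2, disease 3, disease 4 and disease 5, above 1 in disease 4 alone. That of the B cell list ran from 0.533 to 2.34 over libraries. Pdgfra and Cdh5 were at 0 in both classes by the rule. At least 1 fibroblast marker UMI was seen in 188 of 230 cycling T cells (81.7%) and in 2206 of 2800 others (78.8%), while the median cell held 7850.5 UMIs in the cycling class and 3888 in the other. The part of this RNA and of depth in the falls was not tested.

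Most cycling T cells carried CD8. Among cells with UMIs of either CD8 genes or Cd4 but not both, CD8 cells were 193 of 201 in the cycling class (96.0%) and 2173 of 2397 in the other (90.7%). By library the cycling share was 96.4, 100, 50.0, 96.8 and 100% in control 1, control 2, disease 3, disease 4 and disease 5, against 88.8, 66.1, 78.5, 92.2 and 92.2% of other T cells. It was higher in 4 of 5 libraries and lower in disease 3, where 3 of 6 typed cycling cells were CD8. The mean difference of 5.10 percentage points was not larger than the spread between libraries (exact sign-flip permutation test over 5 libraries, two-sided p = 0.5625, smallest possible 0.062), and it turned to -2.11 points without control 2 and rose to 13.5 points without disease 3. UMIs of both kinds were seen in 21 cycling T cells (9.13%) and in 91 others (3.25%). In endothelial cells marked by Cdh5, which should lack CD8, 1.53% had a CD8 UMI at a median of 3200 UMIs. That share was 8% in disease 4, the library with most cycling T cells, and 2.88, 0.134, 0 and 1.18% in control 1, control 2, disease 3 and disease 5.

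The same gene comparison within CD8 cells tested 3541 genes and called 181 higher (5.11%) and 296 lower (8.36%). Of the higher genes 176 were also called over all T cells, which is 97.2% of the CD8 list and 59.5% of the all-T list, of which 235 were tested in CD8 cells. Of the lower genes 252 were shared (85.1% and 53.2%), with 392 of the 474 tested in CD8 cells. Both fits use mostly the same cells. Ccr7 fell most among the named genes (-2.22, against -1.52 over all T cells), and Il7r (-1.93) and Lef1 (-1.69) were called lower within CD8 cells too. Naive and memory genes were called lower in 4 of 6 tested, quiescence genes in 7 of 14 and cytotoxic genes in 6 of 20, with Ifng (-0.74, edgeR adjusted p = 0.010) now among the last. Without the library block 37 of the list and named genes called within CD8 cells lost their call and 27 kept it. Cd74, the invariant chain of MHC class II presentation, fell by 2.02 within CD8 cells and was not called over all T cells (-0.65). Ripor2, an inhibitor of the GTPase RhoA, had a fold change of -1.57 ± 0.31 and the histone gene Hist2h2bb one of 3.43 ± 0.27.

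The cycling T cells were also split by their cell-cycle UMIs and each set was compared with the other T cells, an alternative added after the data were seen. The split uses the UMIs that chose the cells, so its values for cell-cycle genes are a description. The 95 cells with 8 or more such UMIs (18, 1, 3, 54 and 19 in control 1, control 2, disease 3, disease 4 and disease 5) had median log2 fold changes of 2.37 for replication and 2.51 for mitosis genes. The 90 cells with exactly 2 (14 in control 1, 62 in disease 4, 14 in disease 5) had medians of 0.44 for replication, 0.08 for mitosis and -0.09 for chromatin genes, beside -0.21 for all genes of that fit. The naive and memory list had a median of -1.40 in these 90 cells, with 2 of 12 genes called lower by edgeR, against 0.379% of 7387 genes tested. In the same cells none of 16 quiescence genes (median -0.37) and none of 21 cytotoxic genes (median -0.11) was called. Pooled cells with 8 or more held 17.3 quiescence and 172 cytotoxic UMIs per 10000, against 28.3 and 338 in T cells with 0 cell-cycle UMIs. Among the CD8 cells with exactly 2, the naive and memory median was -0.60 with 1 of 11 called lower (0.142% of 6322 genes tested), and in all cycling CD8 cells it was -1.81. Pooled shares of CD8 cells were 90.3% with 0 cell-cycle UMIs, 92.9% with 1, 98.7% with 2, 97.4% with 3 to 7 and 92.9% with 8 or more.

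T cell receptor V segments of the beta chain were read from the 5′ ends in 224 of 230 cycling T cells. In control 1 Trbv13-2 was the segment of 11 of 34 such cells (32.4%) and of 31.7% of other T cells. In disease 5 Trbv19 was found in 31.0% of cycling and 27.3% of other T cells, and Trbv13-2 in 16.7 and 12%. In disease 4 Trbv19 was in 18% and 16%. The common segments of the cycling cells were thus common in the other T cells of the same heart pools. Trbv15 in disease 4 stood somewhat apart, in 24 of 139 cycling T cells (17.3%, 95% Wilson interval 11.9 to 24.4) and in 9.20% of 1565 others (7.87 to 10.7). Trbv1 in disease 3 was in 3 of 7 cycling T cells and in 5.10% of others. Cells of 1 clone share a segment, so these cells are not independent, and the intervals cover counting error only.

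The genes targeted in the mice were read first for the comparison of genotypes. Pdcd1 transcripts were present in the cycling T cells at 511, 129.7, 404, 978 and 754 CPM in control 1, control 2, disease 3, disease 4 and disease 5, although both groups are Pdcd1-/-. Which part of the gene was deleted is not given in the sources used here, so the 5′ tags check nothing. Ctla4 lay at 323 and 129.7 CPM in controls and at 344, 785 and 477 CPM in the heterozygotes. The disease libraries were all above the controls, also when the 2 UMIs of control 2 are read as 3, and the difference did not pass the test (log2 fold change 1.25, edgeR adjusted p = 0.52).

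Between disease and control, few genes differed in the cycling T cells. Of 4937 genes tested by edgeR, 8 were higher (0.162%) and 102 lower (2.07%) in disease, 2.23% in either direction, and 531 had an unadjusted p under 0.05. The groups did not overlap in CPM for 33.6% of genes, and the median log2 fold change was 0.20. Among the 13 lists 2 genes were called, both lower in disease: Cenpa (-2.37, edgeR adjusted p = 0.028) and the histone variant H2afv (-2.83, edgeR adjusted p = 0.019). No gene of the replication, quiescence, cytotoxic, inhibitory, naive, glycolysis or ribosome lists passed. The medians of 6 lists lay at 0.65 or above with no gene called: cytotoxic (0.90), glycolysis (0.86), inhibitory (0.83), cytokine receptor (0.75), T cell lineage (0.70) and homing genes (0.65). Counts of calls swung with single libraries: higher calls went from 8 to 0 without control 2, which has 2 cells, and to 138 without control 1, and lower calls from 102 to 10 without control 1.

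Of the 8 higher genes, 5 were segments of T cell receptor genes. Mt2, a metallothionein, had no UMI in either control and lay at 44.9, 38.3 and 32.8 CPM in disease 3, disease 4 and disease 5, at least 5.32-fold higher by the pooled counts against 3 counts over the control group. In the other T cells Mt2 lay at 16.9 and 0 CPM in controls and at 8.64, 19.2 and 14.2 CPM in disease. Lars2, a mitochondrial leucyl-tRNA synthetase, lay at 234 and 389 CPM in controls and at 3788, 622 and 927 CPM in disease (2.85 ± 0.69, edgeR adjusted p = 0.023), the highest value being that of disease 3. The killer lectin gene Klra3 was the remaining one, with 80 UMIs in disease 4, 34 in disease 5 and none elsewhere; it was named because it completes the 8.

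The named genes that were lower in disease also lay lower in the other T cells of the disease libraries. Snrpf, a core protein of the splicing machinery, lay at 434 and 454 CPM in control cycling T cells and at 0, 6.52 and 19.7 CPM in disease, and in other T cells at 254 and 252 against 10.8, 6.84 and 10.6 CPM. Rnaset2b and H2afj behaved alike, with fold changes of -6.20 and -5.98 in cycling T cells. Hist1h2ao and Hist1h2ab had no UMI in any disease library and were at least 103-fold and 57.0-fold lower against 3 counts over the disease group; both are histone copies whose split is uncertain. The 3 most abundant of the 102, looked up after the values were seen, were Tpt1, Rps2 and H2-D1. Tpt1 lay at 6221 and 6812 CPM in control and at 719, 794 and 870.2 CPM in disease cycling T cells, and at 7123 and 8612 against 928, 842 and 843 CPM in the others. The GC content of the first 300 transcript bases moved with these calls: its median was 65.6% in genes lower in disease, 57.7% in genes not called and 48.4% in genes higher, and Spearman's rho across 4934 genes was -0.367. Between cycling and other T cells rho was 0.001 across 4347 genes, which are not independent. The part of library chemistry in the genotype comparison was not tested.

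Whether the step from other to cycling T cells differed between the genotypes was tested as an interaction. Of 5959 genes 4 were called with a larger step in disease (0.0671%) and 2 with a smaller one (0.0336%), and 212 had an unadjusted p under 0.05 in edgeR. Of these 6 genes 4 are receptor segments, and the other ones are Penk and Dusp14. No gene of the 13 lists was called, which does not show that their steps were alike in both genotypes.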

How the data were processed

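Heart cells of 5 libraries were profiled with 5′ chemistry, and the authors deposited raw UMI counts for each gene and barcode. Per the file headers the software was Cell Ranger 3.1.0; the submitters' processing notes also name Seurat 3 and the builds mm10 and GRCh38. Matrices list 31053 features, and no barcode holds under 500 UMIs. The members and lists were chosen with earlier results of these data known. UMIs were summed per library and class, filtered with filterByExpr, scaled by TMM and tested with edgeR 4.0.16 (quasi-likelihood, library block within libraries, group across libraries). Shares were tested by exact permutation over libraries. Doublets were called with Scrublet and kept. On simulated counts for the cycling comparison (4506 genes) edgeR called 48.0% of 2-fold and 100% of 4-fold changes; for the genotype comparison (4677 genes) 1.00% and 65.6%. The simulation drew all sums from a common mean profile with a fixed dispersion. Other differences between the real libraries were left out, so these rates hold for that setting only. Beyond list genes, the text names the 10 largest rises and falls with mean log2 CPM of at least 5 and 1 direction in each library (5 without overlap between genotypes). Promoters came from the RefSeq table (GRCm38.p6), transcripts for GC content from GENCODE. Alternatives were DESeq2 1.42.0, its size factors, no filter, no block, equal cell numbers, thinning to 2000 UMIs, other limits on mitochondrial and cell-cycle UMIs, no doublets, only fuller libraries, and each library left out. The listed name Aldoa matched no feature.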

Additional observations from a re-analysis of the deposited data

Results flagged for a closer look

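The step from other to cycling T cells differed between genotypes for 6 genes by the interaction term of edgeR over 5959 genes, and no gene of the 13 lists was called. Dusp14, a phosphatase of T cell receptor signalling, had a smaller step in disease (-2.53 ± 0.42, edgeR adjusted p = 1.1e-05): in control 1 it lay at 246 CPM in cycling against 36.6 CPM in other T cells, in disease 3 at 119.8 against 21.6, in disease 4 at 70.1 against 82.9 and in disease 5 at 91.8 against 75.8, and control 2 had no UMI in either class, so the control step is that of control 1 alone. Disease 3 stepped up like control 1. Without control 1 no control step can be estimated. The call was lost without disease 4 (-2.03), without disease 5 (-2.33), with DESeq2 (-2.25) and without the block (-2.41). Penk, the precursor of enkephalin peptides, had a larger step in disease (4.22 ± 0.72, edgeR adjusted p = 1.1e-05), with opposite steps in disease 3, at 734 CPM (49 UMIs) in cycling against 32.4 CPM in other T cells, and in control 1, at 9.64 against 54.4 CPM. Disease 4 lay at 8.96 against 9.83 CPM, disease 5 at 19.7 against 14.2 CPM, and control 2 had no UMI in either class. Without control 1 no control step can be estimated here either. This call was lost without disease 3 (2.62), in the fuller libraries alone (2.65), with DESeq2 (1.85) and without the block (5.18).

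The other 4 were receptor segments: Trbv3 (9.02), Trbv29 (8.53), Trbv15 (5.35) and Trbv2 (-3.85). Trbv3 and Trbv29 had no UMI in the cycling cells of either control, so their fitted values depend on the prior count and are no bound. Trbv15 had 1262 UMIs in the cycling cells of disease 4 and 1 UMI in those of the other 4 libraries together. Trbv2 lay at 57.8 CPM in cycling and 4.33 CPM in other T cells of control 1, at 269.5 and 28.1 CPM in disease 3, a step up like that of control 1, and at 121 and 168 CPM in disease 4. Leaving out disease 4 reduced the calls to 1 larger and 1 smaller step, and leaving out control 2 raised them to 15 and 14.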

How the results depend on the processing

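Some directions depended on control 2: without it the cycling share of T cells differed between groups by -0.71 points and the thinned share by -0.46 points (4.96 and 1.08 without control 1), while the share of all cells stayed positive (0.326 points). The CD8 share of cycling minus other T cells turned to -2.11 points. The thinned share also turned with a limit of 3 cell-cycle UMIs (-0.17), and the CD8 share with mitochondrial UMIs of at most 5% (-1.55).

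Counts of genes called moved more than directions. For cycling against other T cells (296 higher, 474 lower), leaving out a library gave 138 to 541 and 169 to 627, the lowest without disease 4 and disease 5 respectively; without control 1 the counts were 171 and 179. Other settings gave 516 higher at 5% mitochondrial UMIs, 476 with DESeq2 size factors, 561 with no filter, 774 in the fuller libraries, 173 and 41 with equal cell numbers, 199 lower with DESeq2, and 1 and 28 with only cells of 2 cell-cycle UMIs. For CD8 cells (181, 296) the ranges were 75 to 423 and 74 to 459; 422 and 487 at 5%, 341 with size factors, 449 with no filter, 569 and 717 in the fuller libraries, 503 lower with 3 UMIs, 103 lower with DESeq2, and 0 and 9 with 2-UMI cells. For genotypes (8, 102) they were 0 to 138 and 10 to 158; 3 and 66 with 3 UMIs, 1 higher at 5%, 1 and 27 with DESeq2, 3 higher with size factors, 31 and 293 with no filter, 13 and 201 in the fuller libraries, 22 lower with at least 8 UMIs and 26 higher with 2-UMI cells. For the interaction (4, 2) they were 1 to 15 and 0 to 14; 10 and 6 with 3 UMIs, 18 and 13 at 5%, 1 and 0 with DESeq2, 5 lower with size factors, 8 and 7 with no filter, 32 and 38 in the fuller libraries, 5 lower without doublets, 1 and 5 with at least 8 UMIs, and 10 and 14 with 2-UMI cells. The cause was not tested.

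The replicate block, here the library, mattered most for falls: without it 62 genes were higher and 15 lower over all T cells, 37 and 5 in CD8 cells, and 0 and 0 in the interaction. No paired analysis was possible for genotypes because control and disease libraries share no replicate number.

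With only 2-UMI cells, where the median of all genes was -0.21 over all T cells and -0.20 in CD8 cells, some genes called over all T cells changed sign: Pcna -0.024, Rrm1 -0.091, Bub3 -0.16, Kif23 -1.87, Racgap1 -0.033, Hjurp -0.87, Smc4 -0.18, Cks2 -0.20, Lmnb1 -0.12, Tubb5 -0.19, Tuba1b -0.51, Hmgb1 -0.087, H2afx -0.93, H2afv -0.58, Ran -0.25, Dkc1 -0.16 and Pa2g4 -0.011. In CD8 cells they were Pcna -0.16, Dut -0.068, Bub3 -0.021, Smc4 -0.045, Cks2 -0.11, Lmnb1 -0.32, Tuba1b -0.37, Hmgb1 -0.041, H2afx -1.25, H2afv -0.58, Ran -0.51, Ranbp1 -0.30, Pa2g4 -0.15 and Ccl4 0.040, and in the interaction Penk -0.10 and Dusp14 0.86. The genotype comparison rests on 2 against 3 libraries and on 2 cells in control 2, where 3 counts are worth 195 CPM, so genes below that level cannot be placed there.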
